A study of Rattus norvegicus with 10 samples.

Results

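Regulators of melanotroph and pituitary lineage identity were examined in the neurointermediate lobe of the rat pituitary. The set holds 8 genes: Tbx19, Pitx1, Pax7, Neurod1, Lhx3, Isl1, Insm1 and Rbfox3. Its probe sets are those whose platform annotation gives exactly 1 gene symbol equal to one of these names. There were 7 of them among 31042 probe sets without the array controls, and they stood for 5 of the 8 genes. No probe set was annotated to Pax7, Lhx3 or Insm1 alone, so these 3 genes are not analysed here.

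All rats were male Sprague Dawley animals aged 10 to 12 weeks. The dehydrated group had been dehydrated for 3 days, and the control animals are labelled only as controls. Each group had 5 Affymetrix rat genome arrays, and each array carried RNA pooled from 5 animals of its own, so replicate error here is variation among pools. For the tissue, GEO's design text gives the supraoptic nucleus, but the title and the sample labels give the neurointermediate lobe, and the latter was followed.

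The neurointermediate lobe joins the intermediate lobe, made up mostly of melanotrophs, to the neural lobe, where hypothalamic axons end among glial pituicytes. Melanotrophs and the corticotrophs of the anterior lobe both make pro-opiomelanocortin, the product of Pomc, and cut it into different hormones. TBX19 (also called TPIT) is a T-box factor that, together with the homeodomain factor PITX1, switches on Pomc in both cell types. PAX7 sets melanotroph apart from corticotroph identity. NEUROD1 is a basic helix-loop-helix factor that acts on Pomc in corticotrophs, LHX3 and ISL1 are LIM homeodomain factors of the pituitary primordium, and INSM1 is a zinc finger factor of neuroendocrine cells. RBFOX3, known to histologists as the neuronal antigen NeuN, is an RNA-binding splicing regulator, so the set is not made up of transcription factors alone.

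Because TBX19, PITX1 and NEUROD1 all act on Pomc, its proximal promoter is shown here from RefSeq, build GRCr8, plus strand, chr6:32659103-32659352, the 250 bases before the annotated start, 5′ to 3′. Capitals mark matches, on either strand, to the E-box letters CANNTG read by basic helix-loop-helix factors and to the T-box half-site letters AGGTGT.
Pomc: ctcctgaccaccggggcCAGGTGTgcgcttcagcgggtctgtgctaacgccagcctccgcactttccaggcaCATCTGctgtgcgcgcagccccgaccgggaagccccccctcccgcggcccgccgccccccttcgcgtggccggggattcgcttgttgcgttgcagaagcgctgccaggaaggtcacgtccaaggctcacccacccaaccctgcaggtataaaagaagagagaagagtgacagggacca
Counted back from the start, E-box letters lay at -233 to -228 and at -178 to -173, and AGGTGT lay at -232 to -227, overlapping the first E-box. Such E-box letters are in 65.5% and AGGTGT in 11.6% of 33469 RefSeq promoter windows of this length. The letters TAATCC and TAAGCC, read by PITX factors, and AAAGGTCA, read by NR4A receptors, were not in this window, whereas 6.34%, 7.81% and 1.24% of all windows hold them. Only exact letters were sought. The window also holds gaaggtca, which differs from AAAGGTCA only in its leading letter and was not counted. Bases further upstream were not searched, so any sites of TBX19, PITX1 or NEUROD1 there would be missed. The matches describe letters and are not evidence of binding.

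The lobe's own markers had signals above 0 on all arrays, which does not by itself show detection. All 11 melanotroph markers other than the regulators had a tested probe set. With Tbx19 and Rbfox3 added, the summed signal of this list was 17874 to 20936 on dehydrated and 18939 to 21291 on control arrays. The pituicyte list, 11 of 12 genes with a probe set, summed to 5146 to 5857 and to 4343 to 4884, with every dehydrated array above every control array. Markers of the neighbouring anterior lobe, 11 of 12 with a probe set, summed to 4911 to 9528 and to 2661 to 8068. Of these, Pou1f1, Ghrhr and Trhr were below the filter described next. Pou1f1, which specifies growth hormone, prolactin and thyrotropin cells, had signals of 0.7 to 22.0 over its 2 probe sets. No marker of these lists was at 0 on any array.

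Signals are the authors' array intensities on a linear scale. A probe set was tested if its mean log2(signal + 5) was among the highest 60% over all 10 arrays, which left 18625 probe sets and put the lowest tested mean at a signal of about 22.4. Of the 7 probe sets, 4 passed this filter, for Tbx19, Pitx1 and Rbfox3 (2 probe sets). The single Neurod1 probe set and both Isl1 probe sets were dimmer and were not tested. Differences are dehydrated minus control on the log2(signal + 5) scale, which understates changes of dim genes.

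None of the 4 tested probe sets passed a limma adjusted p of 0.05, where 2.46% of all tested probe sets did, 1.68% with a higher and 0.784% with a lower signal after dehydration. At an unadjusted p under 0.05 the count was 1 of 4, Pitx1, beside 17.4% of all tested probe sets. All 7 probe sets had dehydrated and control arrays that overlapped in signal, beside 4.59% of tested probe sets whose groups did not overlap. In whole-lobe RNA, fewer cells of a type and less RNA per cell cannot be told apart.

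**Figure D1:**
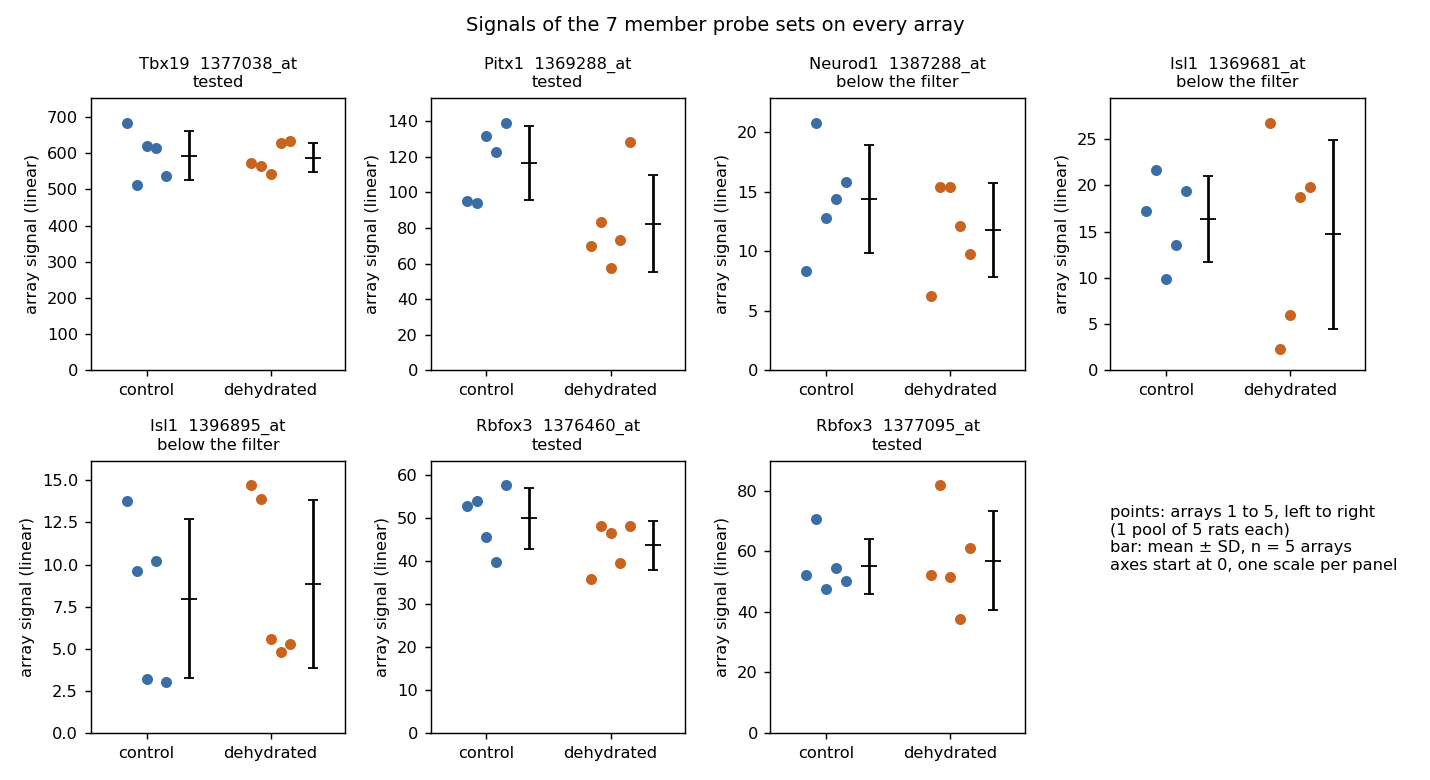
Array signal (linear, axis from 0) of each of the 7 probe sets, with 1 point per array (control blue, dehydrated orange) and mean ± SD of 5 arrays. Tbx19 lies between 513 and 685 on all arrays, and for Pitx1 4 of 5 dehydrated arrays lie below all controls while dehydrated 5, at 128, lies among them.

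Tbx19, the factor most closely tied to Pomc cells, had the smallest spread of the 4 tested probe sets (Entrez Gene 304935, probe set 1377038_at). On dehydrated arrays 1 to 5 its signals were 572, 565, 542, 628 and 635. On control arrays 1 to 5 they were 685, 513, 620, 613 and 538. The highest and the lowest value both came from control arrays, and the dehydrated arrays lay between them. The means were 588 ± 41.0 and 594 ± 68.7 (SD, n = 5), a log2 change of -0.01 ± 0.08 SE (limma adjusted p = 0.974). The 95% interval of the change ran from -0.19 to 0.17, or 0.879 to 1.12 times the control level, so a fall or rise larger than that lies outside it. The SD within groups was 0.14 on the log2 scale, and 23.0% of tested probe sets had a lower one.

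Pitx1, which encodes the homeodomain partner of TBX19 at Pomc, had the largest difference of the tested regulators (Entrez Gene 113983, probe set 1369288_at). On dehydrated arrays 1 to 5 its signals were 69.6, 83.6, 57.3, 73.2 and 128. On control arrays 1 to 5 they were 95, 94.2, 132, 123 and 139. Of the dehydrated arrays 4 lay below all controls, and dehydrated 5 lay above the control median of 123. The means were 82.4 ± 27.3 and 117 ± 20.8 (SD, n = 5), a log2 change of -0.51 ± 0.17 SE. Its unadjusted p was 0.0102 and its limma adjusted p was 0.145, so it did not pass. The 95% interval ran from -0.88 to -0.14, or 0.544 to 0.909 times the control level. The SD within groups, 0.34 on the log2 scale, was higher than in 88.7% of tested probe sets.

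The Pitx1 result depended on dehydrated 5. Without that array the log2 change was -0.67 and passed (limma adjusted p = 0.0108). Without both dehydrated 5 and control 1 it was -0.74 (adjusted p = 0.00761). Leaving out any other single array gave changes of -0.58 to -0.40 that did not pass.

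A measure of RNA integrity was set beside Pitx1. The GAPDH and beta-actin control probe sets give a log2 ratio of 3′ over 5′ signal, which tends to be higher in shortened RNA. It was 2.15 ± 0.38 on dehydrated and 1.78 ± 0.48 on control arrays (SD over n = 5; two-sided exact permutation p = 0.214). Dehydrated 5 had the lowest ratio of its group, 1.61, and control 1 the highest of its own, 2.52. Over the 10 arrays the Pitx1 log2 signal and the ratio had a Pearson r of -0.67 (permutation p = 0.0364) and a Spearman rho of -0.73 (permutation p = 0.0201). After adjustment over 13 such relations these p-values were 0.473 and 0.261. Without the 2 arrays of most extreme ratio, dehydrated 2 and control 5, r was -0.63.

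With the ratio as a covariate, a fit that uses its relation to Pitx1 within the groups, the Pitx1 change was -0.34 on all arrays (limma adjusted p = 0.403). Leaving out dehydrated 5 with the same covariate gave -0.57 (adjusted p = 0.126), and leaving out control 1 as well gave -0.76 (adjusted p = 0.513). On the 8 arrays without dehydrated 5 and control 1, all dehydrated ratios (2.05 to 2.67) exceeded all control ratios (1.26 to 1.91). Dehydration and RNA integrity cannot be told apart on those 8 arrays.

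**Figure D2:**
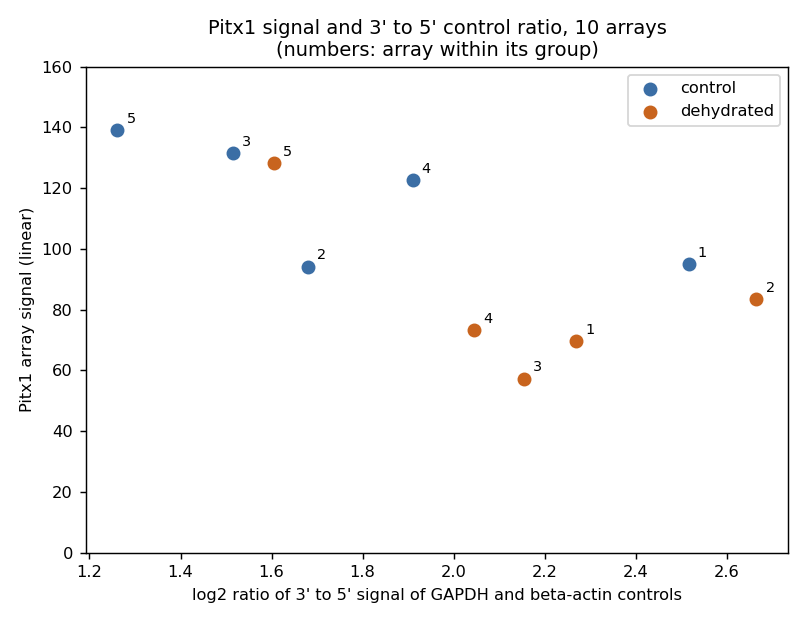
Pitx1 signal (linear, axis from 0) against the log2 ratio of 3′ over 5′ control signal, with 1 point per array, numbered within its group. Arrays with a higher ratio tended to have a lower Pitx1 signal (r = -0.67), and dehydrated 5, with a ratio of 1.61, has the signal of a control array.

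**Figure D3:**
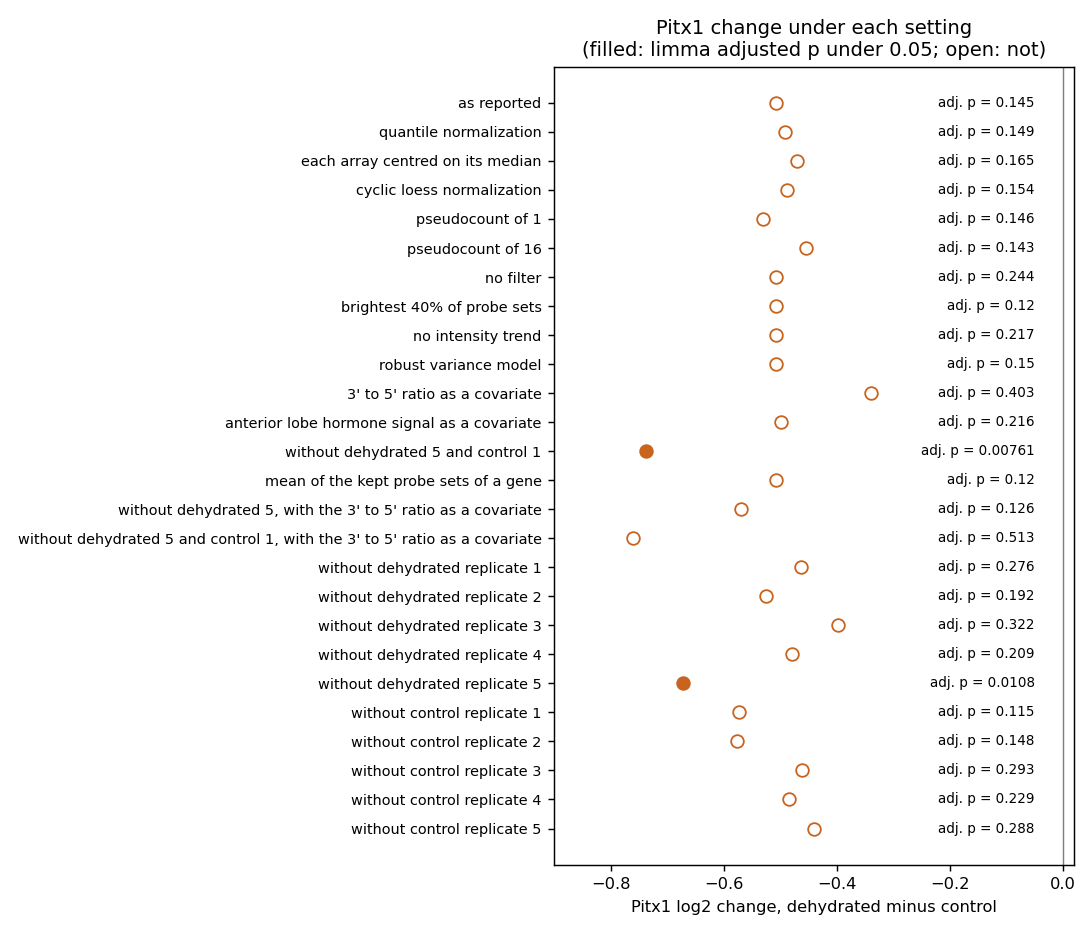
Log2 change of Pitx1 as reported and under each alternative setting, with the limma adjusted p. All values lie below 0, from -0.76 to -0.34, and filled points mark the settings that passed, both of them without dehydrated 5.

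Pitx1 is also expressed in the anterior lobe, so the log2 signals of 6 hormone genes of that lobe were averaged on each array. This average was 9.05 ± 0.38 on dehydrated and 8.84 ± 0.60 on control arrays (SD over n = 5; two-sided exact permutation p = 0.476). The Pitx1 change was about as large with this average as a covariate, -0.50 (limma adjusted p = 0.216). Pitx1 and the average had r = -0.19 and rho = -0.12 over 10 arrays (permutation p = 0.606 and 0.758, adjusted 0.676 and 0.821), and r was 0.33 without dehydrated 2 and control 5. For Tbx19 the values were r = 0.18 and rho = 0.21 (permutation p = 0.624 and 0.561, adjusted 0.676 and 0.817), and r was 0.04 without the same arrays.

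Rbfox3, a marker of neurons that melanotrophs also express, was read by 2 probe sets (Entrez Gene 287847). For 1376460_at the dehydrated signals 1 to 5 were 35.8, 48.2, 46.5, 39.5 and 48.2. The control signals 1 to 5 were 52.8, 53.9, 45.7, 39.7 and 57.6. Of the control arrays 3 exceeded every dehydrated array, and the other 2 lay within the dehydrated range. The log2 change was -0.17 ± 0.14 SE (limma adjusted p = 0.560), with a 95% interval of -0.47 to 0.12.

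For the second Rbfox3 probe set, 1377095_at, the dehydrated signals 1 to 5 were 52.3, 81.8, 51.6, 37.5 and 61.2. The control signals 1 to 5 were 52.3, 70.8, 47.4, 54.4 and 50.2. Both the highest and the lowest array were dehydrated. The log2 change was 0.02 ± 0.17 SE (limma adjusted p = 0.974), with a 95% interval of -0.35 to 0.38. Its sign turned in 10 of 24 alternatives, counting among them the average of both Rbfox3 probe sets. The pair of probe sets had r = 0.37 and rho = 0.32 over 10 arrays (permutation p = 0.296 and 0.366, adjusted 0.676 and 0.817), and r was 0.23 without dehydrated 2 and dehydrated 4.

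Neurod1, the helix-loop-helix factor, was near the bottom of the scale (Entrez Gene 29458, probe set 1387288_at). Its signals were 6.2, 15.4, 15.4, 12.1 and 9.8 on dehydrated and 8.3, 20.8, 12.8, 14.4 and 15.8 on control arrays 1 to 5. The groups overlapped over most of their range. In a fit of all 31042 probe sets without the filter, in which 1.03% passed, the log2 change was -0.21 ± 0.24 SE (limma adjusted p = 0.778), with a 95% interval of -0.73 to 0.31.

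Isl1, the LIM homeodomain factor, was read by 2 dim probe sets (Entrez Gene 64444). Probe set 1369681_at had signals of 26.8, 2.3, 6.0, 18.8 and 19.8 on dehydrated and 17.2, 21.7, 9.9, 13.6 and 19.4 on control arrays. Probe set 1396895_at had 14.7, 13.9, 5.6, 4.8 and 5.3 on dehydrated and 13.8, 9.6, 3.2, 10.2 and 3.0 on control arrays. The dehydrated arrays alone differed from each other by more than the group means did in both. Without the filter the log2 changes were -0.28 ± 0.37 and 0.11 ± 0.30 SE (limma adjusted p = 0.810 and 0.925), with 95% intervals of -1.07 to 0.50 and -0.54 to 0.76. Over the 10 arrays the pair had r = -0.05 and rho = 0.02 (permutation p = 0.888 and 0.973, the same after adjustment), and r was -0.18 without dehydrated 1 and control 5. At these signals neither Neurod1 nor Isl1 had a difference that could be detected, and their intervals include changes as large as that of Pitx1.

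**Figure D4:**
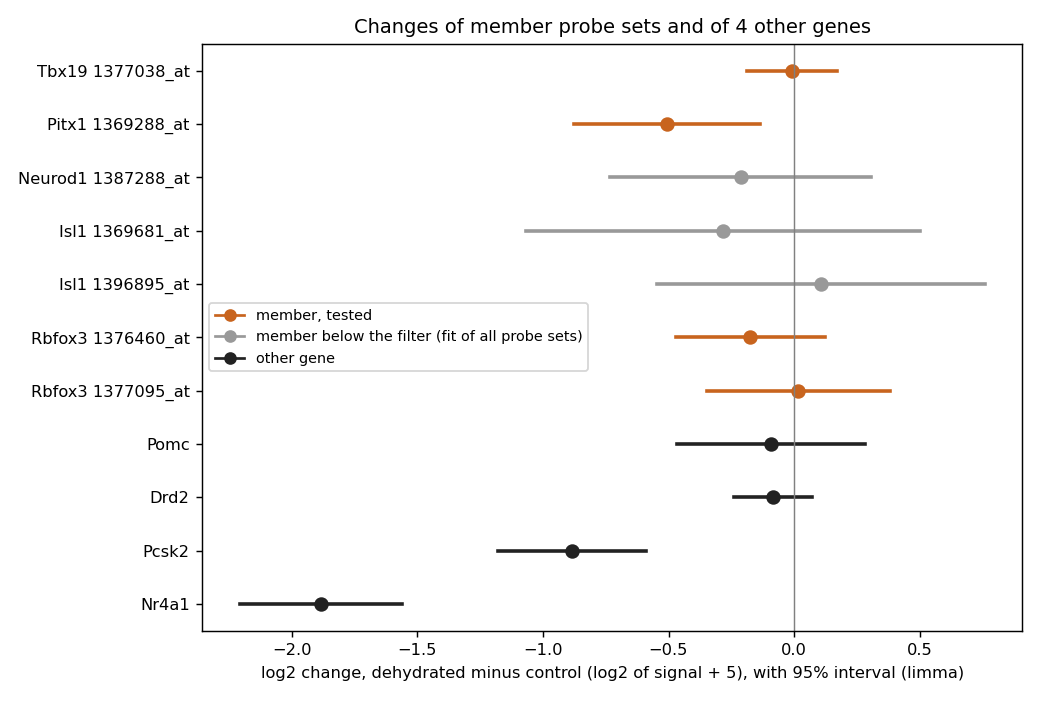
Log2 change, dehydrated minus control, with the limma 95% interval, for the 7 probe sets (orange tested, grey below the filter and fitted with all probe sets) and for Pomc, Drd2, Pcsk2 and Nr4a1 (black). The Tbx19 interval, -0.19 to 0.17, is the narrowest of the 7, and those of Pcsk2 and Nr4a1 lie wholly below 0.

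The genes on which these factors act were set beside them. Pomc had signals of 923, 1090, 604, 566 and 491 on dehydrated and 894, 848, 717, 639 and 674 on control arrays 1 to 5. The dehydrated arrays held both the 2 highest and the 3 lowest values. Its log2 change was -0.09 ± 0.18 SE (limma adjusted p = 0.837), with a 95% interval of -0.47 to 0.28. Adjusted for the 3′ over 5′ ratio it was -0.32 (unadjusted p = 0.0374, limma adjusted p = 0.341). Across arrays Pomc had r = -0.21 and rho = -0.25 with Tbx19 (permutation p = 0.558 and 0.493, adjusted 0.676 and 0.817). With Pitx1 it had r = -0.23 and rho = -0.15 (permutation p = 0.525 and 0.683, adjusted 0.676 and 0.817). Without dehydrated 2 and dehydrated 5 these r values were 0.03 and 0.03. Tbx19 and Pitx1 had r = 0.22 and rho = 0.15 with each other (permutation p = 0.530 and 0.684, adjusted 0.676 and 0.817), and r was 0.29 without dehydrated 3 and control 5.

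Pcsk2, the convertase that makes melanocyte-stimulating hormone and a gene opened by PAX7, fell. Its signals were 330, 318, 339, 399 and 572 on dehydrated and 636, 669, 786, 616 and 867 on control arrays, with no overlap. The log2 change was -0.88 ± 0.14 SE (limma adjusted p = 0.00219). As for Pitx1, dehydrated 5 was the highest of its group. Nr4a1, an orphan receptor that also acts on Pomc, fell by 1.89 on the log2 scale (± 0.15 SE, adjusted p = 2.66e-06). The dopamine D2 receptor gene Drd2, through which melanotrophs are inhibited, had a log2 change of -0.08 ± 0.07 SE (adjusted p = 0.594).

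Of 27 other pituitary lineage transcription factors, 21 had a probe set and 15 were tested, and none passed in either direction, beside 3.19% of 10593 tested genes. By unadjusted p under 0.05 (limma) the count was 1 of 15, Otx2, beside 17.4% of all tested probe sets. Their median log2 change was 0.00, beside -0.01 over all tested probe sets, and their changes ran from -0.35 to 0.33. Otx2, a homeodomain factor of forebrain and pituitary, had signals of 185, 265, 208, 219 and 210 on dehydrated and 143, 197, 181, 161 and 175 on control arrays. Only dehydrated 1 lay within the control range. Its log2 change was 0.33 ± 0.11 SE (limma adjusted p = 0.113).

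Of 8 close relatives of the regulators in the lists, 6 had no tested probe set. These were Pitx3, Lhx4, Isl2, Neurod2, Neurod6 and Insm2, with signals of 0.3 to 44.9 in all. Rbfox1 had 2 of 6 and Rbfox2 1 of 2 probe sets above the filter, and none of these passed. Rbfox2 reached 75.5 on dehydrated and 82.7 on control arrays.

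Of 25 genes of Pomc transcription and melanotroph products, 19 were tested, 4 fell and none rose, beside 3.19% of all tested genes called in either direction. They were Pcsk2 and the 3 Nr4a receptors, Nr4a2 with a log2 change of -1.99 ± 0.20 SE and Nr4a3 with -1.64 ± 0.23 SE (limma adjusted p = 2.20e-05 and 0.000887). Of the other tested probe sets of Nr4a3, 1 gave -1.02 (adjusted p = 0.0283) and 1 gave -1.20 and did not pass (adjusted p = 0.165), and the other one of Nr4a2 gave -2.24 (adjusted p = 0.00144). The list's median change was 0.00. Among the 11 melanotroph markers, Pcsk2 fell and none rose, beside the same 3.19%, with a median of -0.09. Of the 11 changes, 7 were negative and 4 positive. At an unadjusted limma p under 0.05 the count was 5 of 11, beside 17.4% of all tested probe sets. Besides Pcsk2, these were Scg2 at -0.30, Pam at -0.20, Oacyl at -0.54 and Pcsk1n at 0.20. Apart from Pcsk2 none passed (limma adjusted p = 0.0574, 0.0915, 0.133 and 0.200). Among partners of INSM1 and NEUROD1, 9 of 23 were tested and none passed (1 of 9 at an unadjusted limma p under 0.05, beside 17.4% of all tested probe sets). That gene was Tcf4, an E protein that pairs with NEUROD1, with a log2 change of 0.21 ± 0.09 SE (adjusted p = 0.218), while its second probe set gave -0.24 (adjusted p = 0.348).

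Among LIM cofactors and homologues of LHX3 and ISL1, 10 of 19 were tested, 1 rose and none fell, beside 3.19% of all tested genes, with a median of -0.01. The gene that rose was Lhx2, a pituicyte factor. Its signals were 596, 690, 611, 601 and 643 on dehydrated and 502, 509, 480, 434 and 460 on control arrays, with no overlap. The log2 change was 0.39 ± 0.07 SE (limma adjusted p = 0.00564).

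Of the pituicyte markers, 4 of 10 tested rose and none fell, beside 3.19% of all tested genes called in either direction, with a median of 0.22. They were Lhx2, Galp at 2.96 ± 0.17 SE, Gfap at 2.38 ± 0.21 SE and the glutamate transporter gene Slc1a3 at 0.36 ± 0.07 SE (limma, largest adjusted p = 0.00694). Of the 10, 7 had a positive and 3 a negative change. The negative ones were Rax at -0.19, S100b at -0.21 and Aqp4 at -0.22, and none passed (limma adjusted p = 0.241, 0.317 and 0.442). Slc1a3 no longer passed when its probe sets were averaged (0.04, adjusted p = 0.903) or without the intensity trend (adjusted p = 0.0509), and its other tested probe sets gave 0.15 and -0.39 (adjusted p = 0.776 and 0.459). Of the anterior lobe markers, 1 of 8 tested, the follicle-stimulating hormone gene Fshb, fell by 0.86 ± 0.15 SE (adjusted p = 0.00507) and none rose, beside the same 3.19%, with a median of 0.23. The part of these shifts in the values of the regulators was not tested.

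Of 20 RNA-binding regulators related to RBFOX3, 17 were tested, 1 fell and none rose, beside 3.19% of all tested genes, with a median log2 change of -0.05. Khdrbs3, an RNA-binding splicing regulator, had signals of 498, 473, 520, 585 and 616 on dehydrated and 655, 732, 682, 664 and 676 on control arrays, with no overlap. Its log2 change was -0.34 ± 0.08 SE (limma adjusted p = 0.0265). The call ended in 13 of its 25 alternatives, among them leaving out dehydrated 1, 2 or 3 or control 2, 3, 4 or 5, centring each array on its median, and adjustment for the 3′ over 5′ ratio (adjusted p = 0.0546 to 0.755 where it ended). The change itself was -0.41 to -0.27 over all 25.

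**Figure D5:**
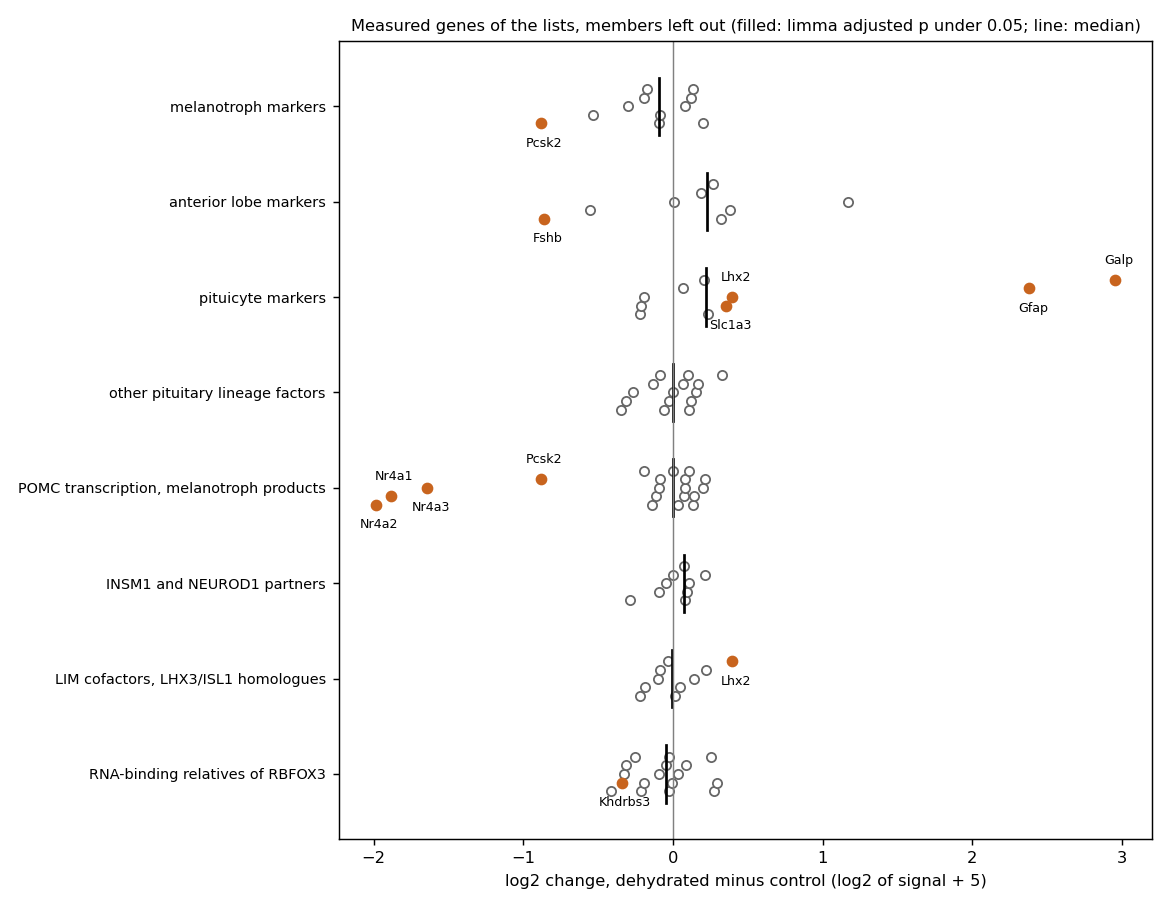
Log2 change, dehydrated minus control, of each tested gene of the lists, the 8 regulators left out; filled points passed a limma adjusted p of 0.05, and the line is the list's median. The other pituitary lineage factors lie between -0.35 and 0.33 with none filled, whereas Pcsk2 and the Nr4a genes lie far to the left.

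The genes whose values over the 10 arrays were most like those of a regulator were sought among 10590 genes by Pearson r, as a description, since the highest of so many values are high by selection. For Tbx19 they were Calcoco1 (r = 0.95), Atxn2l (r = 0.93) and Pnrc1 (r = 0.89). For Pitx1 they were Trip10 (r = 0.96), Zcchc17 (r = 0.96) and Tcf25 (r = 0.95). The Pitx1 genes had log2 changes of -0.29, -0.42 and -0.16, and none passed (limma adjusted p = 0.171 to 0.262). For Rbfox3, by its brighter probe set, they were Hps6 (r = 0.87), Arg1 (r = 0.86) and Rnf150 (r = 0.85). The hundredth gene still had r = 0.71 for Tbx19, 0.84 for Pitx1 and 0.71 for Rbfox3.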

How the data were processed

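RNA of 10 pools was hybridised to Affymetrix arrays; GCOS 1.2 is named in the submitters' processing notes, and its settings are not given in the sources used here. The deposited table holds 1 linear intensity per probe set and array. The authors had scaled the arrays: the mean of these deposited intensities after trimming 2% at each end was 99.7 to 99.8 on every array, so changes are relative to the average probe set. Detection calls were not used here, and signal over background is unknown. The number of arrays limits the precision. Arrays were numbered in deposition order as names alone.

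Of 31099 probe sets, 57 controls were left out; 20826 of the rest had 1 symbol, 436 several and 9780 none in GEO's platform annotation. A gene was represented by its tested probe set with the highest mean. Values were log2(signal + 5). Dehydrated and control arrays were fitted in R 4.3.3 by limma 3.58.1 (intensity trend, two-sided, Benjamini-Hochberg over 18625 probe sets). Of these 458 passed, 312 higher and 146 lower (68.1% higher); with each array centred on its median 80.1% were higher, without dehydrated 5 56.1% (653 higher, 510 lower), and without control 1 as well 47.6% (666 higher, 732 lower). Correlations used 100000 permutations (scipy 1.17.1 and numpy 2.4.6 under Python 3.11.15); the set of 13 relations was chosen after seeing the data. Array measures used an exact permutation test over 252 splits, whose smallest two-sided p is 0.00794. Figures used matplotlib 3.10.9. The steps were tested on simulated data.

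The members and lists were chosen with earlier results of these data known. The rule for named genes took all members, Pomc, Pcsk2, Drd2 and Nr4a1, up to 4 called genes of each list by size or else the gene with the smallest p, and the 3 genes most like each tested member. Family relatives and Pou1f1 were added. Alternatives were other normalizations, pseudocounts of 1 and 16, no filter or the brightest 40%, other variance models, 2 covariates, averaged probe sets, and leaving out arrays.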

Additional observations from a re-analysis of the deposited data

How the results depend on the processing

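Across all 25 alternatives the Pitx1 change stayed below 0 (-0.76 to -0.34), and it passed only without dehydrated 5, with or without control 1, where the fit was not adjusted for the 3′ over 5′ ratio. The count of called regulator probe sets was 0 in all alternatives except these, where it was 1, and leaving out single arrays gave 0 to 1. Of all probe sets, 458 passed as reported, 240 without an intensity trend, 1398 without dehydrated 5 and control 1, and 218 to 1163 with 1 array left out; adjusting for the 3′ over 5′ ratio at the same time, a choice made after seeing the data, 261 passed without dehydrated 5 and 24 without both arrays. The lists had 10 called genes as reported, 5 and 3 in those last settings, and 8 to 14 with 1 array left out. Quantile normalization gave 14 (4 higher, 10 lower) and cyclic loess normalization 13 (4 higher, 9 lower). Both added the melanotroph markers Chgb, Pam and Scg2, all lower, and quantile normalization also added Lmo4. Without both arrays and adjusted for the ratio, Pcsk2, Nr4a2, Nr4a3, Lhx2, Slc1a3, Fshb and Khdrbs3 lost their call (limma adjusted p = 0.115 to 0.755) with the sign of their changes kept (-0.65, -1.48, -1.18, 0.32, 0.39, -0.99 and -0.27), on 8 arrays where ratio and group cannot be told apart, and Nr4a1, Galp and Gfap kept it; the last 4 of those 7 also lost it without dehydrated 5 alone and adjusted for the ratio (adjusted p = 0.0591 to 0.0848), at 0.33, 0.33, -0.79 and -0.33. Nr4a3 was also not among the 5 genes called without dehydrated 5 and adjusted for the ratio. The probe set that represented it on all arrays did pass there, at -1.23 (limma adjusted p = 0.0142). The cause of these losses was not tested.

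Changes near 0 turned sign without passing. Tbx19 was 0.028 with median centring, 0.016 without both arrays and 0.00088 adjusted for the ratio as well, and -0.059 to 0.044 with 1 array left out. Rbfox3 (1377095_at) was -0.050 adjusted for the ratio, -0.019 adjusted for the hormone signal and -0.031 without both arrays. Adjusted for the ratio, it was -0.18 without dehydrated 5 and -0.68 without both arrays. With 1 array left out it was -0.11 to 0.14, and the average of both Rbfox3 probe sets changed by -0.078. Pomc was 0.098 without both arrays and -0.25 to 0.034 with 1 array left out, but -0.32 adjusted for the ratio, and -0.22 and -0.42 so adjusted without dehydrated 5 and without both arrays. Tcf4 was -0.015 with probe sets averaged and -0.050 without both arrays and adjusted for the ratio. Rbfox3's most alike genes were not stable: 0 to 1 of 3 were found again with 1 array left out. For Tbx19 and for Pitx1 1 to 3 of 3 were found again with 1 array left out. Without dehydrated 5 and control 1 it was 1 of 3 for Tbx19, 0 of 3 for Pitx1 and 0 of 3 for Rbfox3. No paired analysis was possible because the labels give no replicate numbers or pairing.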

Other observations

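Leaving out dehydrated 5, chosen because earlier results of these data set it apart, called 14 instead of 10 genes of the lists. The additional genes were Oacyl and Scg2, melanotroph markers, and Mbnl1 and Ptbp1, splicing regulators, named after their values were seen. On all arrays their log2 changes were -0.54, -0.30, 0.28 and -0.42 (limma adjusted p = 0.133, 0.0574, 0.0647 and 0.130). On all arrays Scg2 also passed with quantile or cyclic loess normalization, with averaged probe sets and among the brightest 40%. Mbnl1 passed in the last of these settings.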
